A study of Arabidopsis thaliana with 9 samples.

Results

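Roots exposed to low oxygen were compared with all roots kept at the ambient partial pressure of oxygen. The comparison set the 3 arrays at 50 kPa against the 6 arrays with normal oxygen, 3 at 50 kPa/NormOx and 3 at 97 kPa, with both normal oxygen groups given equal weight. Arrays were assigned by the treatment in their sample titles, and these 9 arrays were all 9 of the series. The samples were roots of Arabidopsis thaliana, ecotype Wassilewskija (WS), grown for 5 d in light at 97 kPa on vertical plates of nutrient medium with sucrose and benomyl, then kept for 24 h in low pressure growth chambers. At 50 kPa the oxygen partial pressure fell with total pressure. At 50 kPa/NormOx total pressure was equally low but added oxygen restored a partial pressure of 21 kPa, and at 97 kPa both were ambient. Carbon dioxide partial pressure, continuous light and humidity were kept the same in the 3 treatments. Each array held RNA of about 12 plants pooled from 1 plate, 1 plate from each of 3 chambers per treatment. Because the normal oxygen groups differ in total pressure, the contrast asked which transcripts followed oxygen whatever the pressure. It has no group of low oxygen at ambient pressure, so an effect of low oxygen that needs low pressure cannot be told apart from one of low oxygen alone.

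When oxygen falls, plant cells can no longer support full mitochondrial respiration and turn to glycolysis and fermentation. Oxygen is sensed through plant cysteine oxidases, which mark group VII ethylene response factors for degradation by the N-degron pathway while oxygen is present. In low oxygen these factors persist and switch on a core set of hypoxia genes shared by many cell types of root and shoot. The set includes fermentation enzymes, wound-responsive family proteins, a universal stress protein and a number of small proteins of unknown function.

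Between arrays of a group, log2 signals correlated at 0.944 to 0.965 over probe sets, and between groups at 0.935 to 0.960. The 50 kPa/NormOx replicate 2 array correlated better with the 50 kPa arrays (mean r = 0.957) than with its own group (mean r = 0.945), and the other arrays of that group had a mean r of 0.945 with the 50 kPa arrays and of 0.946 and 0.947 with their own group. For each of 6 ratios of 3' to 5' control signal the 50 kPa arrays overlapped the normal oxygen arrays. The lowest p was that of a ubiquitin ratio, which averaged 6.87 ± 0.48 at 50 kPa, 7.40 ± 0.09 at 50 kPa/NormOx and 7.56 ± 0.22 at 97 kPa (SD, n = 3 each, exact permutation test, two-sided, unadjusted p = 0.0238, smallest possible 0.0119). After Benjamini-Hochberg adjustment over the 6 ratios none passed (exact permutation test, lowest adjusted p = 0.143). A shift in 1 ratio alone could not go below 0.0714 and so could not pass. Of 10 root markers, 2 were named on the array. PYK10, the root beta-glucosidase, had signals of 15871 to 21454 at 50 kPa, 17499 to 20380 at 50 kPa/NormOx and 18303 to 18990 at 97 kPa, and EXPA7, a root hair expansin, ranged between 201 and 466 over all arrays. Of 7 shoot markers 3 were named, and these were not absent. The antenna protein LHCB4.1 had 4861 to 7302 at 50 kPa, 2526 to 5323 at 50 kPa/NormOx and 3250 to 4818 at 97 kPa. AT2G39730 had 2627 to 5041, 1480 to 5471 and 2194 to 2831 in the same order of groups. AT4G12970 had 493 to 903, 283 to 938 and 246 to 363, so its 50 kPa arrays lay above those at 97 kPa. AT2G39730 and AT4G12970 read highest of all arrays on 50 kPa/NormOx replicate 2.

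A small set of transcripts rose at 50 kPa, 6 of the 7 that had a gene name being core hypoxia genes, and no probe set fell past the threshold. Of 15818 probe sets tested in limma, 18 were higher at 50 kPa at an adjusted p under 0.05 (0.114%) and 0 were lower (0%), while 1234 (7.8%) had an unadjusted p under 0.05 in either direction. Fold changes of the 18 ran between 1.62 and 14.99, with a median of 2.79. Of these, 7 named 1 gene and are described below. The 11 others, which hold the smallest p and the largest fold, had no gene name in the annotation used. They are only counted, apart from 3 differences between the normal oxygen groups given below. Of the 18, 17 would have passed the filter on low signal by their normal oxygen arrays alone, and 1 of those without a gene name passed it only through the 50 kPa arrays. In all 18 the 3 arrays at 50 kPa lay above the 6 normal oxygen arrays, an order found for 1.18% of probe sets tested, with the opposite order in 1.73%. A small p in the same contrast favours this order, so it is not separate support for the calls. Over all probe sets the median log2 change was -0.03. Leaving out 50 kPa/NormOx replicate 2 gave 91 higher and 5 lower, among them all 18. Without 50 kPa replicate 1 there were 7 higher and 1 lower, and without 50 kPa replicate 3 there were 7 higher and 0 lower.

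**Figure D1:**
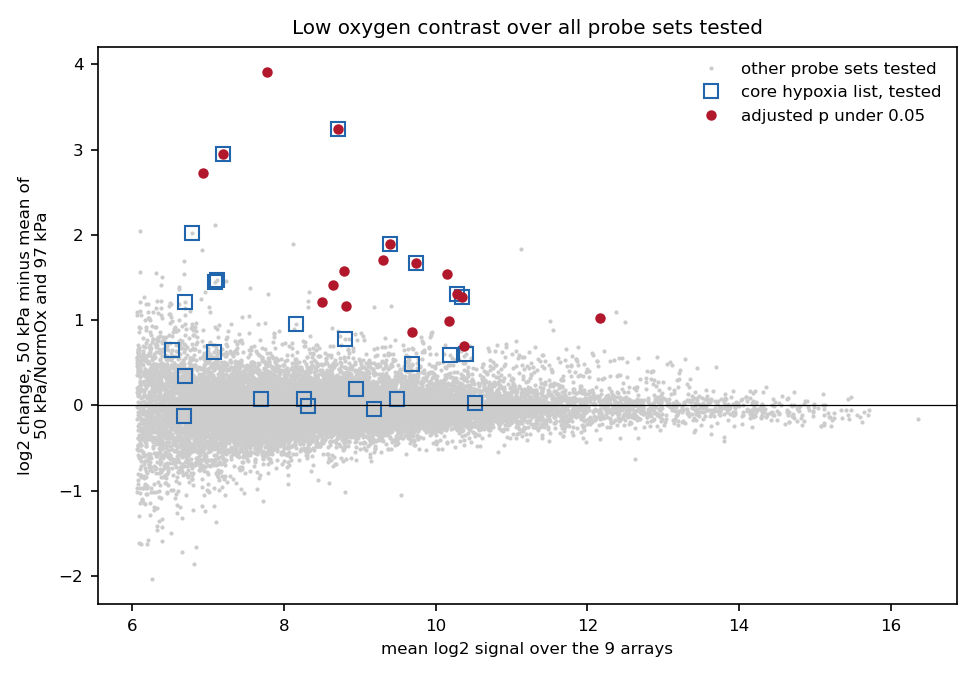
Log2 change at 50 kPa against the mean of both normal oxygen groups (vertical axis) by mean log2 signal over the 9 arrays (horizontal axis), 1 point for each of the 15818 probe sets tested. Filled red points mark the 18 probe sets past an adjusted p of 0.05, all above 0, and blue squares mark the 26 core hypoxia genes tested.

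The largest change of a named gene was that of AT4G33560, a wound-responsive family protein and member of the core hypoxia list. Its MAS5 signal was 1745, 1726 and 2185 at 50 kPa in replicates 1 to 3, 378, 185 and 122 at 50 kPa/NormOx, and 170.3, 246 and 171 at 97 kPa. The lowest array at 50 kPa was thus 4.57 times the highest normal oxygen array, and the groups did not overlap. On the log2 scale, to which all fold changes here refer, the rise was 3.24 ± 0.27 (SE), or 9.45-fold (limma, adjusted p = 1.91e-05). AT4G10270, another wound-responsive family gene, had 1901, 1230 and 2711 at 50 kPa, 1047, 512 and 574 at 50 kPa/NormOx and 596, 451 and 466 at 97 kPa. It rose 3.18-fold (log2 change 1.67 ± 0.24, limma, adjusted p = 0.00640). Here the margin was narrow, since 50 kPa replicate 2 was only 1.17 times 50 kPa/NormOx replicate 1, and the call was lost without 50 kPa replicate 1 (adjusted p = 0.0710) or replicate 3 (adjusted p = 0.0751).

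AT3G03270 encodes HRU1, a universal stress protein of the hypoxia response. It read 2595, 2220.3 and 2039.7 at 50 kPa, 879.9, 943 and 775 at 50 kPa/NormOx and 998, 986 and 969.6 at 97 kPa. Every array at 50 kPa was at least 2.04 times the highest of the others, and HRU1 had the smallest standard error of the 7 named genes (log2 change 1.30 ± 0.12, 2.47-fold, limma, adjusted p = 5.72e-05). Its relatives were tested beside it. Of 17 universal stress protein genes tested, a list added after values had been seen, HRU1 was the 1 gene that rose and none fell. Over all probe sets 0.114% were called higher, so that the others did not pass says little. The list median log2 change was 0.05. AT2G47710 (0.36, limma, adjusted p = 0.565), AT1G09740 (0.57, adjusted p = 0.585) and AT1G44760 (0.17, adjusted p = 0.822) came next by p.

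AT4G27450, an aluminium-induced protein with YGL and LRDR motifs, had signals of 1525, 1276 and 2175 at 50 kPa, 562, 295 and 477 at 50 kPa/NormOx, and 379, 510.5 and 440.1 at 97 kPa. Groups were separated by a factor of 2.27, and the gene rose 3.72-fold (log2 change 1.90 ± 0.21, limma, adjusted p = 0.000294). Its 4 tested relatives with the same motifs, again listed after values had been seen, did not pass, beside 0.114% of all probe sets called higher. Among them were AILP1 (log2 change 0.28, limma, adjusted p = 0.652), AT3G22850 (0.21, adjusted p = 0.749) and AT3G15450 (-0.29, adjusted p = 0.789).

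The other called members of the core list, AT1G33055 and AT5G66985, encode proteins of unknown function. AT1G33055 was dim with normal oxygen and varied widely between arrays at 50 kPa. It had 477, 318 and 1219 at 50 kPa, 111, 85.1 and 57.6 at 50 kPa/NormOx and 105, 33.0 and 86.4 at 97 kPa. The groups did not overlap and the fitted rise was 7.71-fold (log2 change 2.95 ± 0.42, limma, adjusted p = 0.00640), but the normal oxygen mean of 79.7 was close to the 66.6 below which probe sets were not tested, so that the size is uncertain. AT5G66985 had 2218, 1636 and 3562 at 50 kPa, 855, 934 and 1308 at 50 kPa/NormOx and 972, 843 and 964 at 97 kPa. It rose 2.42-fold (log2 change 1.28 ± 0.20, limma, adjusted p = 0.0114). Both calls were lost without 50 kPa replicate 1 or replicate 3, and that of AT5G66985 also without 97 kPa replicate 2 (limma, adjusted p = 0.0502).

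AT1G62500, of the bifunctional inhibitor, lipid transfer and seed storage albumin family, was the 1 named call outside the core hypoxia list. Its signals were 800.3, 833 and 678 at 50 kPa, 326, 535 and 352 at 50 kPa/NormOx and 274, 283 and 343 at 97 kPa, without overlap. The rise was 2.24-fold (log2 change 1.16 ± 0.17, limma, adjusted p = 0.00841), and leaving out any 1 array at 50 kPa gave an adjusted p of 0.0511 to 0.0989. Of 8 tested genes of the hybrid proline-rich lipid transfer family, listed after values had been seen, AT1G62500 itself was the 1 that rose. None fell, and 0.114% of all probe sets tested were called higher. AT4G22470 passed the filter on low signal only through its 50 kPa arrays. The log2 changes of the other 7, which include AT1G62500, lay above 0, as did 44.5% of all probe sets. Their median of 0.67 thus includes the gene already called. AT1G62510 had 517, 200.5 and 231 at 50 kPa, 428, 449 and 490.3 at 50 kPa/NormOx and 141, 94.9 and 104 at 97 kPa. Its log2 change was thus -0.66 against 50 kPa/NormOx and 1.37 against 97 kPa, and the difference between the normal oxygen groups passed (limma, adjusted p = 0.0109). AT1G12100 (1.06, limma, adjusted p = 0.474), AT2G45180 (0.52, adjusted p = 0.585) and AT2G10940 (0.70, adjusted p = 0.625) did not pass. AT2G45180 and AT2G10940 were also high on 50 kPa/NormOx replicate 2, with 5442 and 1799.9, against 3217 and 554 on replicate 1 of that group.

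**Figure D2:**
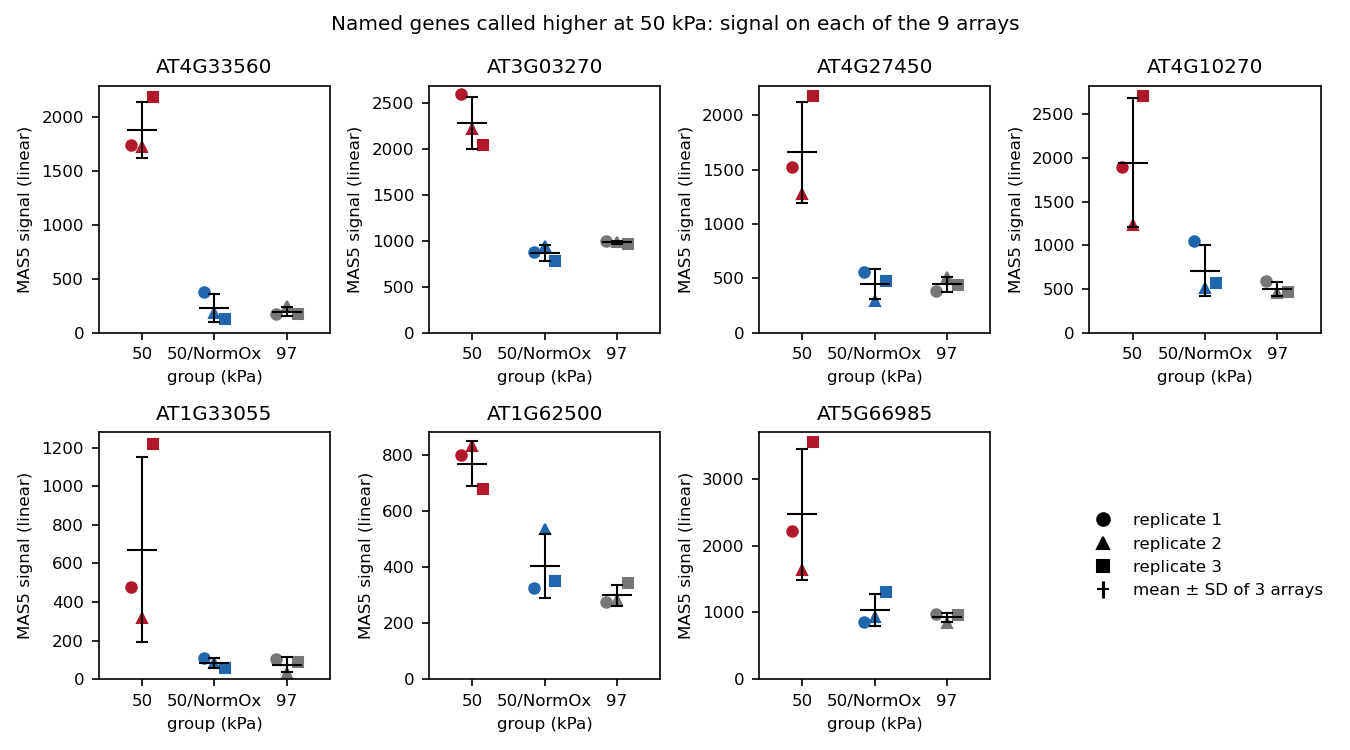
MAS5 signal (linear, vertical axes starting at 0) of the 7 named genes called higher at 50 kPa, by group, with 1 symbol per array and the mean ± SD of the 3 arrays of a group. All 3 arrays at 50 kPa lie above the 6 normal oxygen arrays in every panel, and 50 kPa replicate 3 is the highest array for 5 of the 7 genes.

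The 3 arrays at 50 kPa differed in level among the called probe sets, and whether they differed in response was not tested. Replicate 3 read highest in 10 of the 18 called probe sets, replicate 1 in 5 and replicate 2 in 3. Among the named genes, replicate 3 led for AT4G33560, AT4G27450, AT4G10270, AT1G33055 and AT5G66985, replicate 1 for HRU1 and replicate 2 for AT1G62500. The median signal of the 26 tested core hypoxia genes was 482, 424 and 586 in replicates 1 to 3 at 50 kPa, 319, 276 and 354 at 50 kPa/NormOx and 291, 308 and 287 at 97 kPa. It was therefore higher on each 50 kPa array than on any normal oxygen array, by the least on 50 kPa replicate 2.

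Of the core hypoxia list, chosen with earlier results of these data known, 29 of 53 genes were named on the array and 26 passed the filter on low signal. All 26 would have passed on the normal oxygen arrays alone, so none entered through a high level at 50 kPa. Of the 26, 6 rose, 0 fell and 20 did not pass, beside 0.114% of all probe sets tested called higher. Log2 changes were above 0 for 23 genes, with a median of 0.64 beside -0.03 over all probe sets. Arrays at 50 kPa lay wholly above the normal oxygen arrays for 13 of the 26 and wholly below for 0, beside 1.18% and 1.73% of all probe sets. In bulk root RNA, more transcript per cell and more cells that express a gene cannot be told apart.

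Several core genes were separated between groups without passing the test. AT5G10040, of unknown function, had 333, 216 and 308 at 50 kPa, 101, 25.0 and 80.6 at 50 kPa/NormOx and 46.9, 128 and 88.5 at 97 kPa, a log2 change of 2.02 ± 0.44 (limma, adjusted p = 0.179). AT2G17850, a rhodanese-like protein, had 329, 253 and 224 at 50 kPa, 119, 47.9 and 132 at 50 kPa/NormOx and 111, 91.8 and 109 at 97 kPa (log2 change 1.45 ± 0.32, limma, adjusted p = 0.206). Both passed without 50 kPa/NormOx replicate 2, which read lowest of all 9 arrays for AT2G17850 and AT5G10040 (adjusted p = 0.0356 and 0.0316). The kelch repeat protein AT3G27220 (log2 change 0.95 ± 0.21, limma, adjusted p = 0.233) and AT3G29970, of the B12D family (1.22 ± 0.33, adjusted p = 0.371), were likewise separated without passing. The temperature-induced lipocalin TIL (0.60 ± 0.14, adjusted p = 0.239), the haloacid dehalogenase-like AT5G44730 (0.78 ± 0.19, adjusted p = 0.313) and AT4G39675 (0.60 ± 0.18, adjusted p = 0.460) were separated as well.

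Other members of the core list overlapped between groups. PDC2, a pyruvate decarboxylase, the enzyme that opens ethanol fermentation, had 263, 396 and 304 at 50 kPa, 269.8, 290.3 and 405 at 50 kPa/NormOx and 269, 314 and 395 at 97 kPa. These arrays overlapped fully, and the 95% interval of its log2 change was -0.43 to 0.40. AT3G10040 encodes HRA1, a trihelix factor that restrains the hypoxia response, and its signal of 78.3, 101 and 238 at 50 kPa was no more even than that with normal oxygen (log2 change 0.65 ± 0.67, limma, adjusted p = 0.865). CML38, a calmodulin-like protein of hypoxic stress granules, had a log2 change of 0.34 ± 0.33 (adjusted p = 0.857). AT5G47060 and AT1G74940, FLZ zinc finger proteins, had changes of 0.03 and 0.19 without passing (adjusted p = 0.970 and 0.857), and the lowest value of the list was -0.12 for FHL (adjusted p = 0.958). AT5G26200, AT5G45960 and AT4G24110 lay below the filter. On the unfiltered table AT4G24110 had 70.4, 76.4 and 136 at 50 kPa, 38.4, 78.2 and 3.31 at 50 kPa/NormOx and 39.7, 28.9 and 7.72 at 97 kPa, which overlapped (limma, adjusted p = 0.709).

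**Figure D3:**
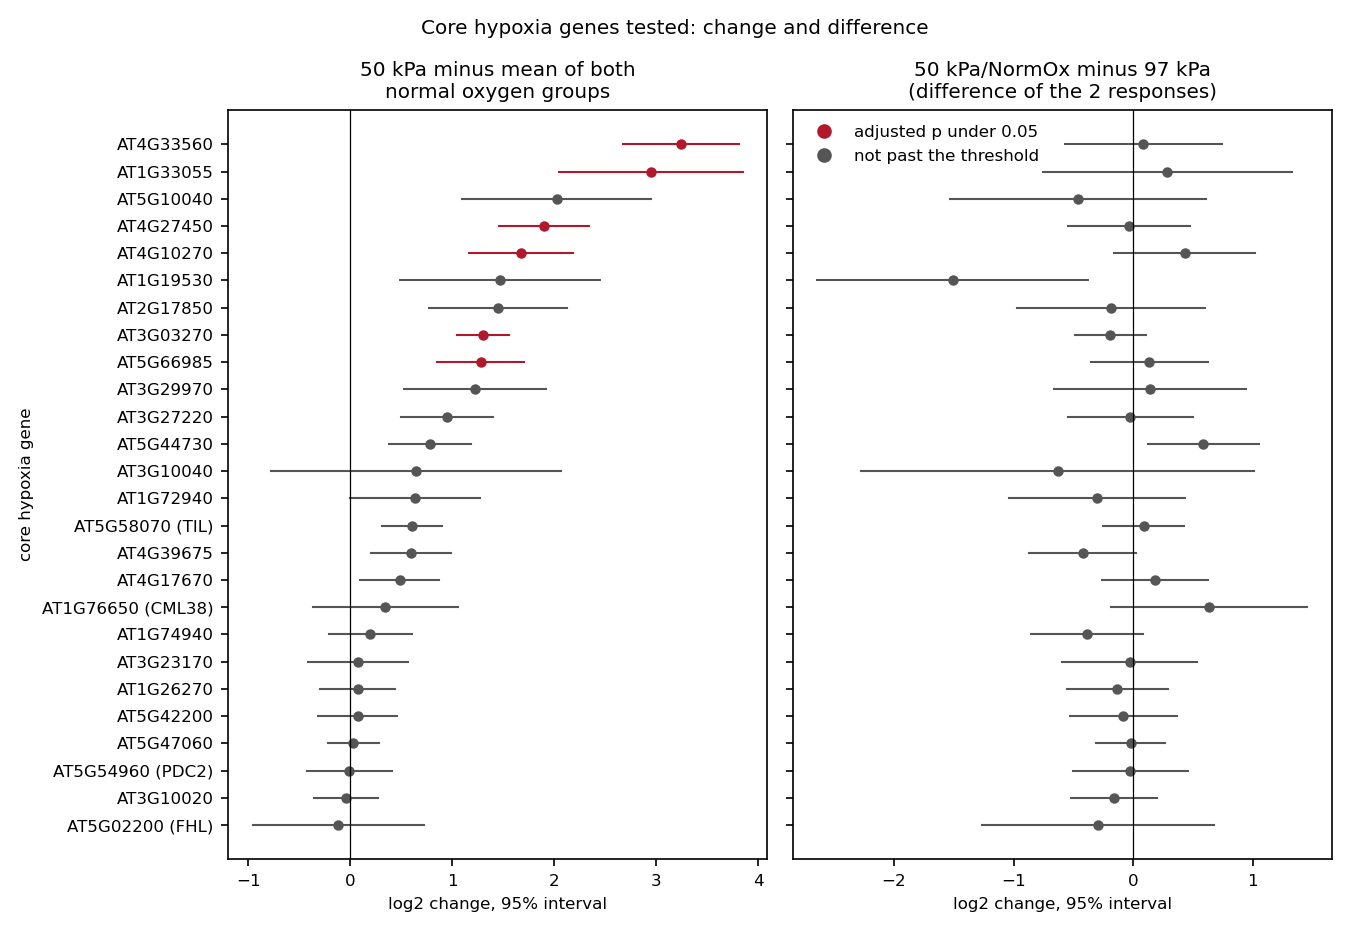
Log2 change with its 95% interval for the 26 core hypoxia genes tested, for 50 kPa against both normal oxygen groups (left panel) and for 50 kPa/NormOx against 97 kPa (right panel), red where the adjusted p was under 0.05. The 6 genes that rose on the left have right-hand intervals that all include 0.

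No group had low oxygen at 97 kPa, so the response there was not measured. Whether the change at 50 kPa depended on the normal oxygen group used as reference was tested by 50 kPa/NormOx against 97 kPa. This contrast compares the 2 total pressures at normal oxygen, and is the difference between the changes measured against each group. That contrast called 0.392% of all probe sets, 0 of the 18 that rose with low oxygen (limma, smallest adjusted p = 0.103, with 3 at an unadjusted p under 0.05) and 0 of the 26 core genes. At so low a share over all probe sets, counts of 0 say little about these genes, and the intervals below bound the differences. The responses measured against each normal oxygen group share the 50 kPa arrays, so they are given side by side. AT4G33560 had a log2 change of 3.20 against 50 kPa/NormOx and 3.28 against 97 kPa, and the difference had a 95% interval of -0.57 to 0.74. For AT4G27450 the changes were 1.91 and 1.88 (interval of the difference -0.54 to 0.47), and for HRU1, AT3G03270, they were 1.40 and 1.21 (-0.48 to 0.10). For AT1G33055 they were 2.80 and 3.09 (-0.76 to 1.33) and for AT5G66985 1.21 and 1.34 (-0.35 to 0.62). The interval of AT1G33055 thus still holds a difference as large as 1.33 on the log2 scale. AT4G10270 changed by 1.46 and 1.89 (-0.16 to 1.02) and AT1G62500 by 0.96 and 1.36 (-0.02 to 0.83). Against 50 kPa/NormOx alone, AT4G10270 and AT5G66985 (limma, adjusted p = 0.0857 each) and AT1G62500 (adjusted p = 0.156) did not pass. The other named calls passed there, with the highest adjusted p at 0.0456 for AT1G33055 (limma). Against 97 kPa alone all named calls passed (limma, highest adjusted p = 0.0317, AT5G66985). The most uneven core gene was AT1G19530, with 170.1, 244 and 488 at 50 kPa, 131, 20.9 and 73.0 at 50 kPa/NormOx and 185, 160.4 and 155 at 97 kPa. Its log2 change was 2.22 against 50 kPa/NormOx and 0.71 against 97 kPa, a difference that did not pass (limma, adjusted p = 0.243).

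No gene tested by name passed in the pathways linked to oxygen or stress beyond the core list. Most members of these lists were not tested by name, 34 of 44 for glycolysis and fermentation and 18 of 20 for oxygen sensing. The annotation used does not tell whether any of the 11 called probe sets without a gene name belongs to them. The lack of calls among the few genes tested therefore does not show that fermentation or oxygen sensing failed to respond. Of the genes of sucrose cleavage, glycolysis and fermentation, 10 were tested, 0 rose, 0 fell and the median log2 change was -0.02. L-lactate dehydrogenase, AT4G17260, which ferments pyruvate to lactate, had 578, 369.8 and 469.9 at 50 kPa, 272, 374 and 349.7 at 50 kPa/NormOx and 338, 283 and 273 at 97 kPa. Only 50 kPa replicate 2 overlapped the normal oxygen arrays, and the gene did not pass (log2 change 0.57 ± 0.18, limma, adjusted p = 0.468). The glycolytic enzyme GAPC2 had a log2 change of 0.25 (adjusted p = 0.580). AT1G20950 and AT1G12000, subunits of pyrophosphate-dependent phosphofructokinase, had -0.26 and -0.13 without passing (adjusted p = 0.657 and 0.840).

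Of the 20 genes of oxygen sensing 2 were tested, HRA1 and the methionine aminopeptidase MAP1A, AT2G45240 (-0.05, limma, adjusted p = 0.945), and neither passed. Ethylene synthesis and signalling gave 3 tested genes of 28, with a median of -0.17 and 0 calls. They were RTE1 (-0.19, limma, adjusted p = 0.781), EIN3, the central transcription factor of the pathway (-0.17, adjusted p = 0.840), and the ACC oxidase AT1G12010 (0.05, adjusted p = 0.977). Of alternative respiration, 4 of 16 were tested, with a median of -0.20 and 0 calls. The NAD(P)H dehydrogenases NDB4 (-0.73, limma, adjusted p = 0.720), NDB2 (-0.35, adjusted p = 0.805) and NDB1 (-0.06, adjusted p = 0.958) and the mitochondrial stress marker AT2G21640 (0.11, adjusted p = 0.910) did not pass.

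Heat shock proteins likewise had 0 calls among 5 tested of 24 and a median of -0.05. The small heat shock proteins AT2G29500 (-0.47, limma, adjusted p = 0.690) and AT1G53540 (-0.40, adjusted p = 0.830), AT5G48570 (0.17, adjusted p = 0.877) and Hsp70-2 (-0.05, adjusted p = 0.954) did not pass. Of 25 markers of drought and abscisic acid 2 were tested, the dehydrin COR47 (-0.10, limma, adjusted p = 0.868) and COR15B (-0.07, adjusted p = 0.977). Of the lists for reactive oxygen, aquaporins and nitrogen metabolism, no gene was tested by name.

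The medians of the suberin genes and of the CC-type glutaredoxins each had opposite signs against the normal oxygen groups. All 5 tested suberin genes lay above 0 (median 0.36) with 0 calls, yet against 50 kPa/NormOx the median was -0.36 and against 97 kPa it was 1.06. The lipase AT5G37690 had 2093, 1130.3 and 1383 at 50 kPa, 1423, 1866 and 2205 at 50 kPa/NormOx and 845, 726 and 578 at 97 kPa. It did not pass in the low oxygen contrast (log2 change 0.39, limma, adjusted p = 0.657), nor did AT2G23540 (0.45, adjusted p = 0.685), AT2G48130 (0.36, adjusted p = 0.726) or AT5G12420 (0.16, adjusted p = 0.917). The difference between the normal oxygen groups passed for 3 of the 5. Of 15 CC-type glutaredoxins, a family of small redox proteins, 0 passed and the median was -0.18, with 0.34 against 50 kPa/NormOx and -0.58 against 97 kPa. For 1 of them, AT1G06830, the difference between the normal oxygen groups passed (log2 difference -1.13, limma, adjusted p = 0.0405). ROXY2 had 97.3, 147 and 91.6 at 50 kPa, 199, 188 and 323 at 50 kPa/NormOx and 282, 143 and 206 at 97 kPa (log2 change -0.98 ± 0.27, limma, adjusted p = 0.391). ROXY1 (-0.52, adjusted p = 0.585), GRX480 (-0.63, adjusted p = 0.644) and AT4G33040 (0.33, adjusted p = 0.652) did not pass either.

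Cytosolic ribosomal protein genes had small changes whose median lay below 0 against 50 kPa/NormOx (-0.20) but not against 97 kPa (0.01). Of 39 tested 0 passed, 4 lay above 0, or 10.3% beside 44.5% of all probe sets, and the median log2 change was -0.10 beside -0.03. AT3G13580, of the large subunit, was lowest by p, with 2731, 2739 and 3164 at 50 kPa, 4170.4, 3382 and 3789.8 at 50 kPa/NormOx and 3410.4, 3305 and 3222 at 97 kPa. The groups did not overlap but the change of -0.30 ± 0.10 did not pass (limma, adjusted p = 0.540). AT5G20290 (-0.24, adjusted p = 0.540), AT2G34480 (-0.19, adjusted p = 0.638) and AT5G60670 (-0.23, adjusted p = 0.642) did not pass.

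**Figure D4:**
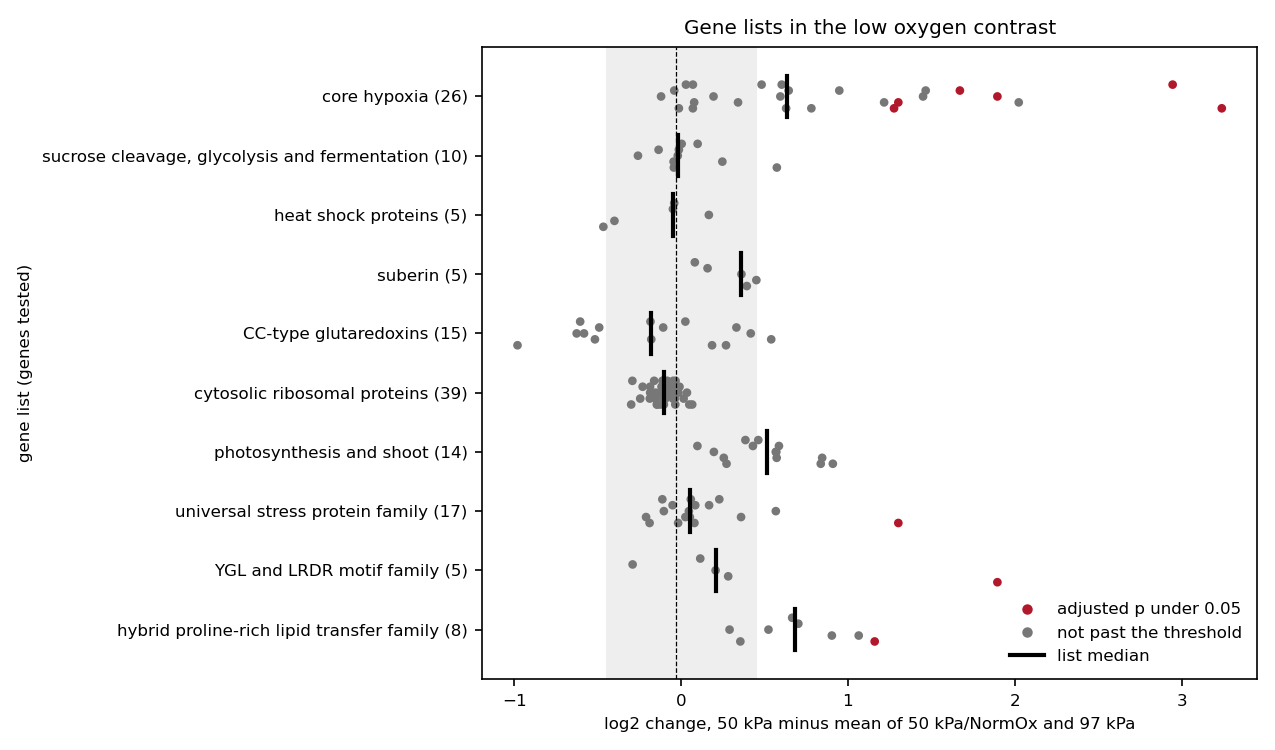
Log2 change at 50 kPa against both normal oxygen groups for each tested gene of the lists with at least 5 tested genes (1 point per gene, red where the adjusted p was under 0.05), with the list median as a black bar. The grey band spans the 5th to 95th percentile of all probe sets tested (-0.44 to 0.45) and the dashed line their median of -0.03; the core hypoxia genes reach farthest to the right.

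No gene of photosynthesis and shoots passed, while the signals of these genes were also high on 50 kPa/NormOx replicate 2. All 14 tested of 58 lay above 0, beside 44.5% of all probe sets, with a median log2 change of 0.52. Of the 14, 2 were separated between groups, beside 1.18% of all probe sets higher in this way. The summed signal of the 14 was 31091, 44904 and 31081 at 50 kPa, 17822, 39562 and 22847 at 50 kPa/NormOx and 21939, 28584 and 33748 at 97 kPa. It was high on 50 kPa/NormOx replicate 2, as on 50 kPa replicate 2, and the groups overlapped. TROL, which tethers an enzyme of electron transport to the thylakoid, had 511, 861 and 496 at 50 kPa, 319, 481 and 249.8 at 50 kPa/NormOx and 268, 402 and 262 at 97 kPa (log2 change 0.91 ± 0.23, limma, adjusted p = 0.344). PORB, of chlorophyll synthesis, had 0.85 ± 0.22 (adjusted p = 0.369), LPA1, a photosystem assembly factor, 0.57 ± 0.19 (adjusted p = 0.528) and LHCB4.1 0.59 ± 0.20 (adjusted p = 0.540). Without 50 kPa/NormOx replicate 2, 3 of the 14 were called higher, TROL, PORB and LHCB4.1, beside 91 of 15818 probe sets. The median was 0.61.

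Plastid-encoded probe sets, kept out of the tested set, had a median signal of 1744, 2250.1 and 2041 at 50 kPa, 1336, 1482 and 1206 at 50 kPa/NormOx and 1748, 1944 and 1621 at 97 kPa. The arrays at 50 kPa were thus above all those at 50 kPa/NormOx but overlapped those at 97 kPa. In a fit with organelle probe sets kept, 65 were tested, 0 were called and 61 lay above 0 (median log2 change 0.37), and 40 had an unadjusted p under 0.05, beside 7.8% of all probe sets. The median was 0.62 against 50 kPa/NormOx and 0.18 against 97 kPa. This plastid level differs between the groups, and with it as a covariate, a choice made after seeing the data, 0 probe sets were called. The log2 changes of AT4G33560 and AT3G03270 were then 3.46 and 1.46 (limma, adjusted p = 0.0515 each). AT4G27450 had an adjusted p of 0.295, and AT4G10270, AT1G33055, AT1G62500 and AT5G66985 lost their calls as well. The core median was 0.83. The part that shoot-type RNA has in the calls was not otherwise tested.

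**Figure D5:**
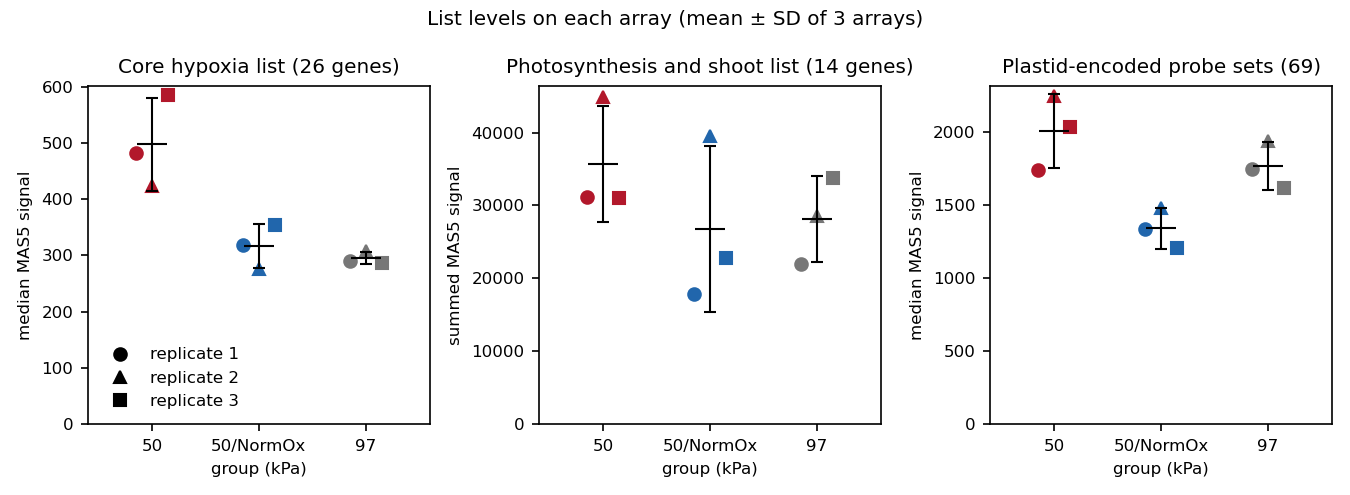
Level on each array of the 26 tested core hypoxia genes (median MAS5 signal), the 14 photosynthesis and shoot genes (summed signal) and the 69 plastid-encoded probe sets (median signal), by group, with the mean ± SD of 3 arrays. Core hypoxia levels are separated at 424 or more on the 50 kPa arrays and 354 or less on the others, whereas the photosynthesis sums overlap and are high on replicate 2 at 50 kPa and at 50 kPa/NormOx.

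Just outside the threshold lay genes of other functions, named here after their values were seen. SBT1.3, AT5G51750, a subtilisin-like protease, was the first probe set outside (limma, adjusted p = 0.0532), while the last inside had an adjusted p of 0.0416. It had 1371, 1695 and 1389 at 50 kPa, 814, 1230.3 and 716 at 50 kPa/NormOx and 765, 696 and 752 at 97 kPa (log2 change 0.86 ± 0.16). AT5G48490, of the lipid transfer protein family, had 455, 444 and 324 at 50 kPa, 219.5, 280.4 and 131 at 50 kPa/NormOx and 127, 104 and 175 at 97 kPa (log2 change 1.31 ± 0.25, limma, adjusted p = 0.0797). In both, 50 kPa/NormOx replicate 2 was the highest normal oxygen array, and both passed without it (adjusted p = 0.00167 for SBT1.3 and 0.0137 for AT5G48490).

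Of the named genes that were lower at 50 kPa on every array, AT4G38410, of the dehydrin family, which protects cells in dehydration, had the smallest p. It had 406, 252 and 210.4 at 50 kPa, 432, 477 and 417 at 50 kPa/NormOx and 589.5, 744 and 858 at 97 kPa. The groups did not overlap, but the change of -1.02 ± 0.20 did not pass (limma, adjusted p = 0.0797), and it was -0.67 against 50 kPa/NormOx and -1.38 against 97 kPa. AT4G03230, a receptor-like kinase, had 157, 147 and 223 at 50 kPa, 358, 298 and 279 at 50 kPa/NormOx and 425, 317 and 301 at 97 kPa (log2 change -0.92 ± 0.19, limma, adjusted p = 0.179). AT5G26260, of the TRAF-like family, had 229, 236 and 304 at 50 kPa, 574, 316 and 720.2 at 50 kPa/NormOx and 458, 453 and 434 at 97 kPa (log2 change -0.91 ± 0.22, adjusted p = 0.295). Its array nearest to the 50 kPa arrays was again 50 kPa/NormOx replicate 2. AT4G38410 and AT5G26260 passed without that array (limma, adjusted p = 0.0410 and 0.00580), and AT4G03230 did not. AT4G38410 also passed without 50 kPa replicate 1 (adjusted p = 0.0117), its highest array at 50 kPa.

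Of the 96 probe sets called without 50 kPa/NormOx replicate 2, 36 named a gene, 33 higher and 3 lower. In 65 of the 91 higher ones this array read above every other normal oxygen array. Of the 91, 73 were called only without this array. That selection favours probe sets where it read high, so the 65 is not a separate result. Among the genes not called with all arrays were AT4G29030, with 956, 1357 and 752 at 50 kPa, 311, 1365 and 351 at 50 kPa/NormOx and 404, 329 and 390.4 at 97 kPa (log2 change 1.50, limma, adjusted p = 0.000670), and HEME2, AT2G40490, a uroporphyrinogen decarboxylase of chlorophyll and heme synthesis (0.98, adjusted p = 0.0175). With all arrays their changes were 1.16 (AT4G29030, adjusted p = 0.453) and 0.82 (HEME2, adjusted p = 0.371). The core hypoxia list gained only AT5G10040 and AT2G17850, for 8 of 26, beside 91 higher of 15818 probe sets, with a median of 0.65.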

How the data were processed

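Biotin-labelled cRNA of 9 root samples was hybridised to ATH1 arrays, and the values the authors deposited were linear MAS5 signal intensities from Affymetrix Expression Console, scaled to 1 trimmed mean per array (versions and genome build not given in the sources used here). They carry no detection calls, so low signal and absence of a transcript look the same, and scaling conceals any change in total mRNA. RMA values, as used by the study, were not used here. The number of arrays limits the precision.

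Of 22810 probe sets, 64 controls and 148 of organelle-encoded genes (69 named as plastid genes, 79 taken from runs of probe numbers) were left out, as were the 6780 dimmest of the remaining 22598 (30%, floor at a signal of 66.6). The 0 unused sample columns leave nothing aside. Names came from the platform annotation, which gave 1 gene for 13513 probe sets (13436 matched in the TAIR10.1 gene table), several for 503 and none for 8794. No sequences or coordinates are given.

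The log2 signals of all 9 arrays were fitted in limma 3.58.1 (R 4.3.3) with 3 group means, an intensity trend and moderated two-sided tests, Benjamini-Hochberg adjusted over 15818 probe sets, and the contrast gave each normal oxygen group a weight of 0.5. The fit was also tested on simulated data. Where a listed gene had several probe sets, the brightest stood for it. Named genes were up to 15 rises and 15 falls among called, non-overlapping probe sets of 1 gene, every called list member, up to 4 members of each list by p, and others stated as chosen after their values were seen. The members and the 18 lists, 3 of them added after values were seen, were chosen with earlier results of these data known. Lists are described by counts and medians, without a set test. Samples labelled as replicates came from separate chambers. Alternatives covered the filter, scaling, offset (32), variance model, array weights, grouping of the normal oxygen arrays, replicate number as a block, organelle probe sets, threshold, each array left out and, added after seeing the data, the plastid-encoded level as a covariate.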

Additional observations from a re-analysis of the deposited data

Results flagged for a closer look

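Among the 6 normal oxygen arrays, 27 genes (the called named genes and the tested core hypoxia genes) were checked for an array far from the rest, which chance gives in about 1 of 20 groups. For AT4G10270, 50 kPa/NormOx replicate 1 read 1047, with the next at 596, a gap of 0.757 of the range. For AT1G62500, 50 kPa/NormOx replicate 2 read 535, with the next at 352 (gap 0.701 of the range). For AT5G66985, 50 kPa/NormOx replicate 3 read 1308, with the next at 972 (gap 0.721 of the range). Each far array was thus the highest normal oxygen array and was a different replicate of the same group. These genes were all called ones, in which every normal oxygen array lay below the 50 kPa arrays, as given above.

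The response measured against 97 kPa and that measured against 50 kPa/NormOx differed, by the test of the difference itself, for 5 members of the lists, 3 of them suberin genes. The differences of the suberin genes on the log2 scale were 1.35 for AT5G37690 (limma, adjusted p = 0.0201), 1.40 for AT2G48130 (adjusted p = 0.0330) and 1.62 for AT2G23540 (adjusted p = 0.0308). The others were AT1G62510, of the lipid transfer family (2.03, adjusted p = 0.0109), and the glutaredoxin AT1G06830 (-1.13, adjusted p = 0.0405). In the suberin genes and AT1G62510, 50 kPa lay above 97 kPa and below 50 kPa/NormOx on average, in AT1G06830 the order was the opposite, and none of the 5 passed in the contrast of 50 kPa with both normal oxygen groups.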

How the results depend on the processing

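The count of probe sets called higher was 17 to 24, beside 18, under no filter, the filter at 50%, quantile normalization, an offset of 32, array weights, 1 group of 6 normal oxygen arrays, the replicate block and organelle probe sets kept, and 16 to 18 of the 18 were among them. An adjusted p under 0.01 kept 13. Without the intensity trend, 8 were higher and 1 was lower (AT1G59510), with 3 core hypoxia genes called. At the methods' threshold of an unadjusted p under 0.01 and at least 2-fold, 35 were higher and 17 lower, with 10 core genes. With the plastid-encoded level as a covariate, chosen after seeing the data, 0 were higher, 0 core genes were called and the core median was 0.83; the cause was not tested, but that level differs between the groups. Leaving out each array gave 7 to 91 higher (lowest without 50 kPa replicates 1 or 3, highest without 50 kPa/NormOx replicate 2), 0 to 5 lower, 3 to 8 core genes called and a core median of 0.60 to 0.84.

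Replicate numbers are those of the sample titles. For 1 sample at 50 kPa the description gives replicate 3 where the title gives replicate 2, so results that rest on replicate numbers share this doubt. Over all probe sets, deviations of same-numbered arrays of different groups correlated at r of -0.05 to 0.11, over 0.1 in 1 of 9 pairs. That pair was replicate 2 at 50 kPa and at 50 kPa/NormOx. Pairs with different numbers had r of -0.12 to 0.12, over 0.1 in 2 of 18. Whether same-numbered arrays share more than a number was not otherwise tested. With the replicate block 24 probe sets were higher and 1, without a gene name, was lower. Under all alternatives but the covariate, AT4G33560, AT3G03270 and AT4G27450 kept their calls, with log2 changes of 2.98 to 3.46, 1.21 to 1.46 and 1.68 to 2.07 over all 21. AT4G10270, AT1G33055, AT1G62500 and AT5G66985 lost theirs under 4, 4, 5 and 6 alternatives. AT1G33055 had no value with the filter at 50%. No named gene changed sign where it was called. None of the 18 was called in the difference between the normal oxygen groups under any alternative that gives it. Low signal limits the size of the AT1G33055 change, and 3 arrays per group limit all intervals.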
